A study of Mus musculus with 9 samples.

Results

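The 8 microRNAs (miRNAs) described here are known to be induced by inflammatory signalling in macrophages, and were followed in exosomes, small vesicles shed by cells. They are mmu-miR-146a-5p, mmu-miR-146b-5p, mmu-miR-155-5p, mmu-miR-132-3p, mmu-miR-212-3p, mmu-miR-147-3p, mmu-miR-9-5p and mmu-miR-187-3p, taken by name from 1101 mature mouse miRNAs listed in at least 1 of 9 libraries. The rule that picks them uses no measured value, although the list was drawn up with earlier results of these data known. Of the 8, 7 were listed in every library and passed the filter on low counts, and miR-147-3p was listed in none. Exosomes were collected from cultures of RAW264.7, a macrophage line from a mouse tumour induced with a leukaemia virus. Cells were left untreated (3 libraries) or exposed to silica, the mineral dust whose inhalation leads to silicosis, for 24 h (3 libraries) or 48 h (3 libraries). All groups share 1 cell line and a culture medium with 10% fetal bovine serum, and the labels give neither the dose of silica nor whether the serum was cleared of its own vesicles.

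miRNAs guide the silencing complex to messenger RNAs mainly through the seed, bases 2 to 8 from the 5′ end, and each hairpin precursor can release a mature miRNA from either of its arms, 5p and 3p. In macrophages, Toll-like receptor and NF-κB signalling induces miR-146a and miR-155. miR-146a restrains the pathway through Traf6 and Irak1, while miR-155 relieves restraint by targeting Socs1 and Inpp5d. miR-132 and miR-212 are made from 1 transcript that responds to CREB, miR-147 is induced by Toll-like receptor ligands in mouse macrophages, and miR-9 and miR-187 respond to endotoxin and to IL-10, respectively, in human monocytes.

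The mature sequences of 6 of the miRNAs (RefSeq, GRCm38.p6) are shown with the seed in capitals, because the results compare pairs that share one. 
mmu-miR-146a-5p: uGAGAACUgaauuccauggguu
mmu-miR-146b-5p: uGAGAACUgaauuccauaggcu
mmu-miR-155-5p: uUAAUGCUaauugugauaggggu
mmu-miR-132-3p: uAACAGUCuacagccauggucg
mmu-miR-212-3p: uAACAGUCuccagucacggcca
mmu-miR-9-5p: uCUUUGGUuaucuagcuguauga
The seed GAGAACU is common to miR-146a-5p and miR-146b-5p, which match at 20 of 22 bases and differ by the substitutions G18A and U21C (counted from 1 at the 5′ end, miR-146a-5p first). The seed AACAGUC is common to miR-132-3p and miR-212-3p, which match at 17 of 22 bases and differ by A10C, C14U, U17C, U20C and G22A (miR-132-3p first). The sources used here do not say to which miRNA a read that fits several was counted, so the split within the miR-146 pair, whose 2 differences lie near the 3′ end, is the less certain one.

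The genes lie apart in the mouse genome except for the miR-132 and miR-212 pair. Mir132 (chr11:75173682-75173747, plus strand) and Mir212 (chr11:75173388-75173478, plus strand) sit in an intron of the non-coding transcript 1700016P03Rik. Mir146, which encodes miR-146a, lies between annotated genes (chr11:43374397-43374461, minus strand), and Mir146b lies in an intron of the protein-coding gene Mfsd13a (chr19:46342762-46342870, plus strand). Mir155 overlaps an exon of its non-coding host Mir155hg (chr16:84714140-84714204, plus strand), and Mir147 overlaps an exon of AA467197 (chr2:122640803-122640881, plus strand). miR-9-5p has 3 source genes, on chromosomes 3, 7 and 13, that give the same mature sequence, so its count cannot be divided among them. Coordinates are those of GRCm38, the assembly that the submitters' notes call mm10.

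Libraries held 2158418 to 8331451 counts of mature miRNA, which were 28.0% to 44.7% of all counted small RNA reads. Levels are given as counts per 1000000 counts of mature miRNA after TMM scaling (CPM), and 3 counts, the upper limit that a count of 0 allows, correspond to 0.314 to 1.55 CPM depending on the library. Each read spans a whole miRNA, so no length correction is needed to set one beside another, although capture into a library can differ between sequences. The myeloid markers miR-223-3p, miR-342-3p, miR-142a-3p and miR-142a-5p were all counted in every library, with a summed level of 577 to 891 CPM in untreated, 1000 to 1545 in 24 h and 553 to 1395 in 48 h libraries. Markers of serum and red blood cells (miR-122-5p, miR-451a, miR-486a-5p and miR-144-3p) summed to 406 to 1858 CPM in untreated, 2130 to 5643 in 24 h and 1197 to 1723 in 48 h libraries. miR-144-3p was at 0 in 3 of the 9 libraries and the other 3 serum markers in none. The untreated and 48 h libraries numbered 2 stood apart from the rest: they listed the most miRNAs (829 and 912, against 486 to 713) and were the most alike pair of all (r = 0.969 across miRNAs).

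The exosomes carried the members at very unequal levels. miR-146a-5p was among the most abundant of all mature miRNAs, with a mean of 49700 CPM and rank 5 of 1101, between miR-222-3p at 49890 CPM and miR-27a-3p at 48598 CPM. Within single libraries its rank ran from 4 to 16 and it made up 2.27% to 7.05% of the mature counts. The 8 miRNAs together made up 2.49% to 7.21% of mature counts, and miR-146a-5p alone was 90.8% to 98.0% of that. The next in order were miR-155-5p with a mean of 800.2 CPM (rank 63, between miR-26b-5p and miR-872-5p) and miR-146b-5p with 645 CPM (rank 70). They were followed by miR-212-3p with 147 CPM, miR-187-3p with 117 CPM, miR-9-5p with 87.2 CPM and miR-132-3p with 52.2 CPM. miR-146a-5p was above miR-155-5p in 9 of 9 libraries with no overlap of their ranges. miR-146b-5p was above miR-212-3p in 9 of 9, although their ranges over libraries overlapped. The other neighbours changed places between libraries: miR-155-5p was above miR-146b-5p in 6 of 9, miR-212-3p above miR-187-3p in 5, miR-187-3p above miR-9-5p in 6, and miR-9-5p above miR-132-3p in 8.

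**Figure D1:**
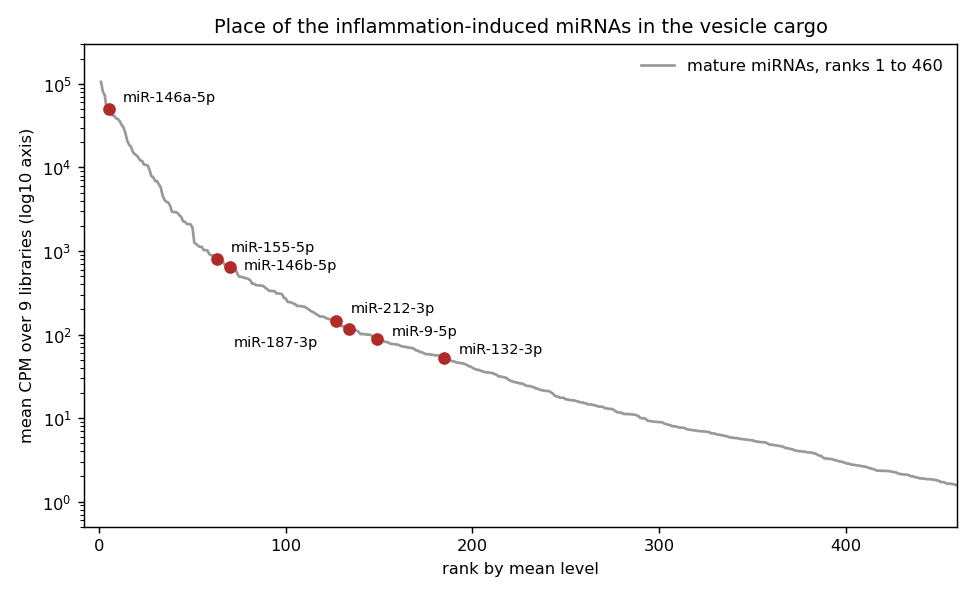
Mean level of mature miRNAs over the 9 libraries (CPM, log10 axis) against rank, for the first 460 of 1101 ranks, with the 7 listed members as red points. miR-146a-5p stands at rank 5, and miR-132-3p, the lowest of the 7, at 52.2 CPM.

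In each comparison the question was whether these miRNAs differed in vesicles between cells with and without silica, or between the times. None of the 7 passed the test in any comparison. At 24 h against untreated, the quasi-likelihood test of edgeR, adjusted over 453 miRNAs by the Benjamini-Hochberg method, called 0 of the 7 and 0 of all 453 (0.0%). For 48 h against untreated it again called 0 of the 7 and 0.0% of all, and at 48 h against 24 h likewise 0 of the 7 and 0.0% of all. At an unadjusted p under 0.05 it picked 46, 4 and 44 of the 453 in the 3 comparisons (10.2%, 0.883% and 9.71%), and 0 of the 7 in each. DESeq2 called 4, 1 and 6 miRNAs, with 0 members among them. When edgeR was fitted with libraries paired by number, 3 miRNAs passed in the 24 h comparison with untreated and 0 in the 48 h one, and no member was among the 3. These p-values take the variation among 3 libraries per group as error; the design text calls those libraries independent.

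The groups overlapped for every member in every comparison. Of all 453 miRNAs, 10.4% had every 24 h library above every untreated library and 6.18% had every one below, and 0 of the 7 members did either. These shares for 48 h against untreated were 2.21% above and 1.55% below, and at 48 h against 24 h they were 10.4% above and 10.4% below, again with 0 of the 7. At 24 h, 2 of the 7 had a log2 fold change above 0 (median -0.17, beside -0.07 for all tested, of which 46.6% were above 0). For the later time against untreated, 3 of the 7 were above 0 (median -0.11, beside 0.03 and 52.5%), and at 48 h against 24 h, 5 of the 7 (median 0.10, beside 0.14 and 54.1%).

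**Figure D2:**
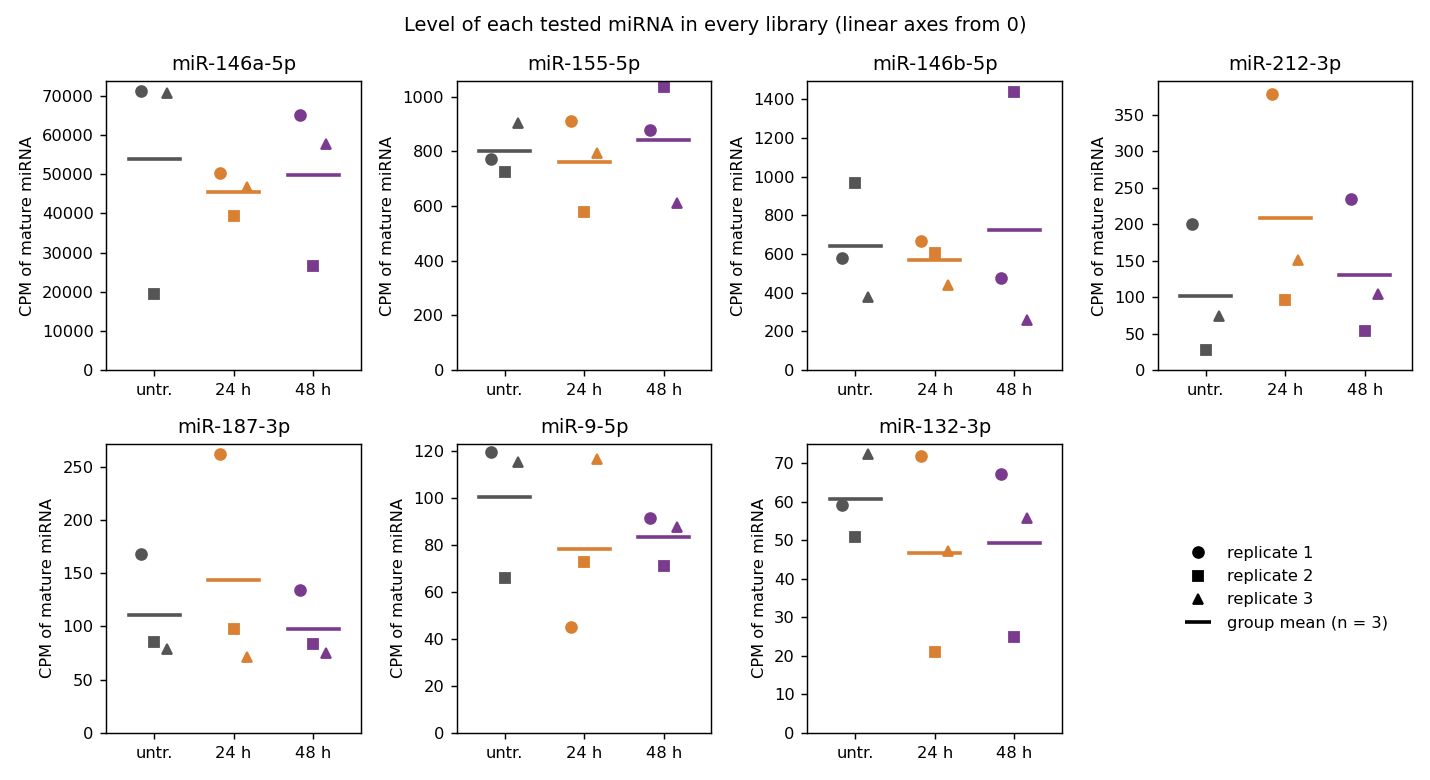
Level of each listed member (CPM of mature miRNA, linear axes from 0) in the 9 libraries; points are libraries with the replicate number as symbol and lines are group means (n = 3). Groups overlap in every panel, miR-146a-5p is lowest in the library numbered 2 of each group, and miR-146b-5p is highest in the untreated and 48 h libraries numbered 2.

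miR-146a-5p, which restrains Toll-like receptor signalling, had 71167, 19534 and 70610 CPM in untreated libraries 1, 2 and 3, then 50405, 39229 and 46815 CPM at 24 h and 65107, 26662 and 57772 CPM at 48 h. In each group the library numbered 2 was the lowest, and the 3 24 h libraries lay inside the untreated range. The log2 fold change was -0.24 ± 0.49 (SE, n = 3) at 24 h, with a 95% interval of -1.31 to 0.83, and -0.11 ± 0.49 at 48 h, with an interval of -1.18 to 0.96 (edgeR, adjusted p = 0.887 and 0.997). Between the times it was 0.13 ± 0.49 (edgeR, adjusted p = 0.892). A doubling or a halving is a log2 fold change of 1 or -1, so the intervals against untreated still hold a 2-fold decrease and leave a 2-fold increase just outside.

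Its same-seed relative miR-146b-5p had 580, 965 and 377 CPM in untreated libraries, 668, 603 and 443 CPM at 24 h, and 478, 1435 and 257 CPM at 48 h. The highest values of the untreated and 48 h groups were both in the libraries numbered 2, where miR-146a-5p was lowest. The log2 fold change was -0.17 ± 0.66 at 24 h and 0.17 ± 0.66 at 48 h (SE, n = 3; edgeR, adjusted p = 0.924 and 0.997), and without those 2 libraries it was 0.27 and -0.38, so its sign rested on them in both comparisons. From 24 h to 48 h it was 0.34 ± 0.66 with all libraries (edgeR, adjusted p = 0.823) and -0.66 without those 2.

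Set within each library, miR-146b-5p was 0.808%, 4.71% and 0.532% of the counts of the miR-146 pair in untreated libraries, 1.31%, 1.51% and 0.937% at 24 h, and 0.729%, 5.11% and 0.443% at 48 h. The libraries numbered 2 of the untreated and 48 h groups held the 2 high values, and the other 7 ran from 0.443% to 1.51%. This share does not depend on scaling between libraries. In the same 2 libraries the blood cell marker miR-142a-3p was at 187 and 241 CPM, against 14.5 to 49.98 CPM in the others, and the serum marker miR-122-5p was at 255 and 407 CPM, against 926 to 2256 CPM. These are single markers picked from their lists. The myeloid list as a whole summed to 719 and 1147 CPM there, inside the 553 to 1545 CPM of the other libraries. The serum list summed to 406 and 1197 CPM, against 1500 to 5643 CPM. The part of these markers in the miR-146 pair's share was not tested.

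miR-155-5p, the member that promotes the response, was the steadiest. It had 773, 723 and 904 CPM in untreated libraries, 910, 577 and 793 CPM at 24 h, and 879, 1034 and 610 CPM at 48 h. The untreated libraries lay inside the wider ranges of the 24 h and 48 h groups, and the highest library had 1.79 times the level of the lowest. The log2 fold change was -0.07 ± 0.47 at 24 h (95% interval -1.09 to 0.94) and 0.07 ± 0.47 at 48 h (-0.95 to 1.09; SE, n = 3; edgeR, adjusted p = 0.950 and 0.997), and 0.15 ± 0.47 between the times (edgeR, adjusted p = 0.874). Its within-group SD of log2 CPM was 0.31, beside 0.75 for miR-146a-5p, 0.84 for miR-146b-5p and a median of 0.72 over the 143 miRNAs with at least 100 CPM. In single libraries it ranked between 57 and 71.

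miR-212-3p had the widest spread. It had 200.3, 28.2 and 74.9 CPM in untreated libraries, 379, 95.8 and 151 CPM at 24 h, and 235, 54.2 and 104 CPM at 48 h. In each group library 1 was the highest and library 2 the lowest, the highest overall was 13.4 times the lowest, and the within-group SD of log2 CPM was 1.17. The log2 fold change at 24 h was 1.04 ± 0.83 (SE, n = 3; 95% interval -0.77 to 2.86; edgeR, unadjusted p = 0.233 and adjusted p = 0.683), the farthest from 0 of any member in any comparison. At 48 h it was 0.37 ± 0.82 against untreated (edgeR, adjusted p = 0.997) and -0.67 ± 0.83 against 24 h (edgeR, adjusted p = 0.758). Between libraries with the same number, miR-212-3p was higher than untreated in 3 of 3 pairs at 24 h and in 3 of 3 at 48 h. Of all 453 miRNAs, 24.3% and 14.8% were higher in every pair at these times, and 18.5% and 11.5% lower in every pair. Among the 7 members the only other one with a single direction was miR-187-3p, lower in 3 of 3 pairs at 48 h. Fitted with the number as a block, the log2 fold change of miR-212-3p was 1.22 at 24 h and 0.53 at 48 h (edgeR, adjusted p = 0.228 and 0.982). Leaving out 1 library at a time, with no block, moved the 24 h value between 0.21 and 1.99. The summed level of serum markers was also higher in the 24 h libraries than in the untreated ones, as given above. Group means were higher at 24 h for miR-451a (1952 against 444 CPM) and miR-122-5p (1820 against 825 CPM). They were lower for miR-486a-5p (5.85 against 6.38 CPM) and miR-144-3p (0.28 against 0.42 CPM). The part of these markers in the miR-212-3p value was not tested.

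miR-132-3p, made from the same transcript, had 59.0, 50.9 and 72.4 CPM in untreated libraries, 71.8, 20.9 and 47.2 CPM at 24 h, and 67.0, 24.9 and 55.7 CPM at 48 h. As for miR-212-3p, library 2 was the lowest of each group. Its log2 fold change was -0.38 ± 0.61 at 24 h, 0.08 ± 0.61 between the times and -0.31 ± 0.61 at 48 h against untreated (SE, n = 3; edgeR, adjusted p = 0.874, 0.947 and 0.997, in that order). These rest on 91 to 319 counts a library.

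**Figure D3:**
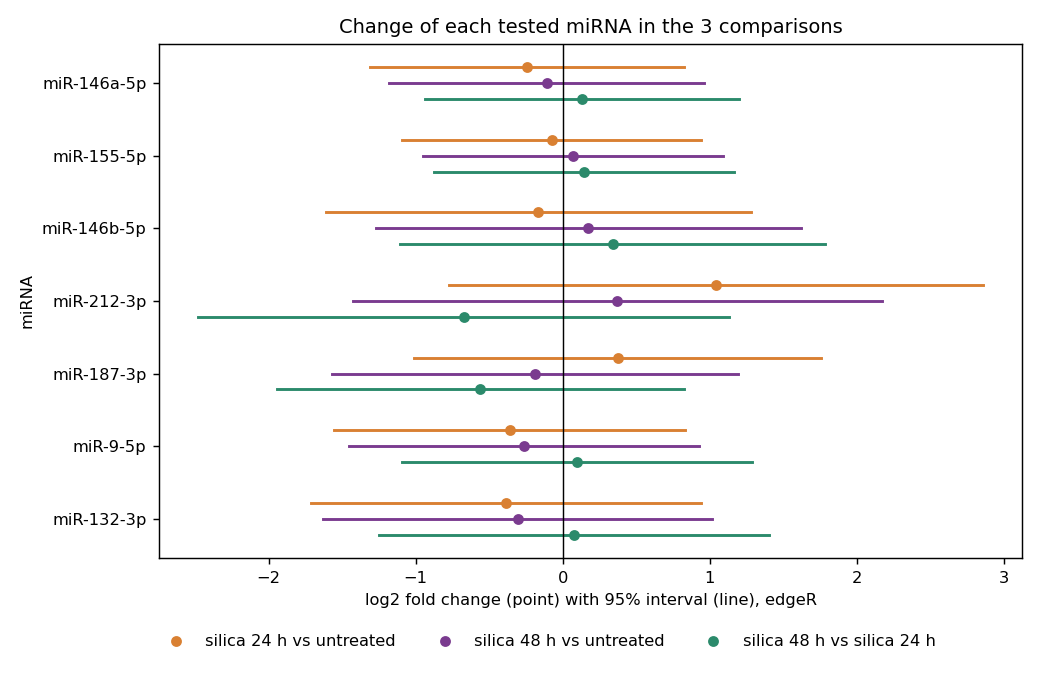
Log2 fold change of each listed member (points) with its 95% interval (lines) from edgeR, for 24 h against untreated, 48 h against untreated and 48 h against 24 h (n = 3 libraries a group). Every interval crosses 0, and that of miR-212-3p at 24 h is centred on 1.04.

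The miR-132 and miR-212 pair was counted mostly as miR-212-3p. Its share of the pair was 77.2%, 35.6% and 50.8% in untreated libraries, 84.1%, 82.1% and 76.2% at 24 h, and 77.8%, 68.5% and 65.1% at 48 h, above 50% in 8 of 9 libraries. Group means were 54.6% ± 21.1, 80.8% ± 4.07 and 70.5% ± 6.59 (SD, n = 3). The untreated libraries were far apart, and the highest of them reached into the 24 h range. Between libraries with the same number the share was above untreated in 3 of 3 pairs at both times; it is a description with no test.

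Both arms of the miR-132 hairpin were present, and the arm outside the 8 members was the more frequent one in 7 of 9 libraries. The hairpins of the pair (RefSeq, GRCm38.p6, coordinates as above) are shown with the 5p arm and then the 3p arm in capitals. 
Mir132: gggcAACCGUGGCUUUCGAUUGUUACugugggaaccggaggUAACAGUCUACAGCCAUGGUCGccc
Mir212: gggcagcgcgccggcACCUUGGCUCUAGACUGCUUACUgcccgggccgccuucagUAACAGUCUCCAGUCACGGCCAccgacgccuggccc
The 2 hairpins share the seed of their 3p arms but not that of their 5p arms. Compared base by base from their 5′ ends with no shift, the 5p arms match at 9 of 22 positions. miR-132-5p begins with AACC and miR-212-5p with ACC, so a shifted alignment could match at more positions and was not counted. miR-132-5p had 146, 10.4 and 260.4 CPM in untreated libraries, 227, 72.4 and 228 CPM at 24 h, and 120, 14.9 and 253 CPM at 48 h. Library 2 was again the lowest of each group, by a wide margin in the untreated and 48 h groups. For miR-132-5p the log2 fold change was 0.34 ± 1.07 at 24 h and -0.11 ± 1.07 at 48 h (SE, n = 3; edgeR, adjusted p = 0.918 and 0.997).

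As a share of both arms, miR-132-5p was 71.2%, 17.0% and 78.2% in untreated libraries, 75.9%, 77.6% and 82.9% at 24 h, and 64.1%, 37.4% and 81.9% at 48 h. Outside the untreated and 48 h libraries numbered 2, the share was 64.1% to 82.9%. The 3p arm averaged 44.5% ± 33.5, 21.2% ± 3.61 and 38.8% ± 22.4 in the 3 groups (SD, n = 3). The difference of 24 h from untreated was -23.3 percentage points with all libraries and -4.07 without untreated library 2 (two-sided exact permutation p = 0.3 with all, adjusted p = 0.764 over 21 arm tests).

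**Figure D4:**
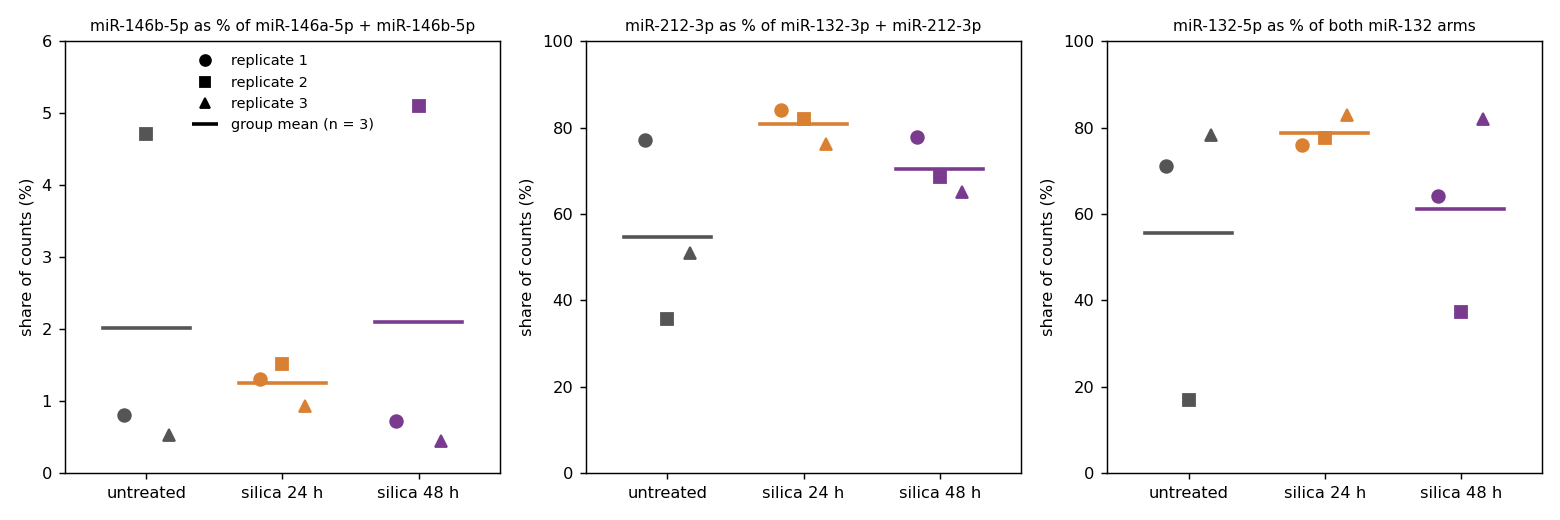
Shares of counts within each library (%): miR-146b-5p of the miR-146 pair, miR-212-3p of the miR-132 and miR-212 pair, and miR-132-5p of both miR-132 arms; points are libraries with the replicate number as symbol and lines are group means (n = 3). The libraries numbered 2 of the untreated and 48 h groups (squares) stand away from the other 7 in the left panel, at 4.71% and 5.11%, and in the right panel, at 17.0% and 37.4%.

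The hairpins of miR-146a, miR-146b, miR-155, miR-212 and miR-187 gave almost only the named arm. Their opposite arms miR-146a-3p (0 to 3 counts a library), miR-146b-3p (0 to 5), miR-155-3p (0 to 12), miR-212-5p (0 to 34) and miR-187-5p (0 to 11) did not pass the filter on low counts. For miR-212 the 3p arm was 96.9%, 95.9% and 99.1% of both arms in untreated libraries, 99.7%, 99.8% and 100% at 24 h, and 98.3%, 99.0% and 98.7% at 48 h. The 24 h libraries lay above the other 2 groups, with an exact permutation p of 0.1 against each, which is the smallest that 3 against 3 allows (adjusted p = 0.700 over 21 arm tests), and the difference rests on 0 to 34 counts of the 5p arm. For miR-155 the 5p arm was 99.97% ± 0.036 in untreated and 99.78% ± 0.20 in 48 h libraries (SD, n = 3), which did not overlap (exact permutation p = 0.1, adjusted p = 0.700). Of the 21 arm tests, none reached an adjusted p under 0.05, which no exact test of this size could.

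miR-9-5p, which is abundant in neural tissue and induced by endotoxin in human monocytes, had 119, 65.9 and 115 CPM in untreated libraries, 44.9, 72.7 and 117 CPM at 24 h, and 91.3, 71.1 and 87.8 CPM at 48 h. The 48 h libraries lay inside the range of both other groups. Its log2 fold change was -0.36 ± 0.55 at 24 h, 0.10 ± 0.55 between the times and -0.26 ± 0.54 at 48 h against untreated (SE, n = 3; edgeR, adjusted p = 0.861, 0.923 and 0.997, in that order). The neural markers miR-124-3p, miR-128-3p, miR-129-5p, miR-138-5p and miR-137-3p summed to 413 to 761 CPM in untreated, 383 to 607 CPM at 24 h and 496 to 658 CPM at 48 h; most of this was miR-128-3p, and miR-137-3p was at 0 in 4 libraries. Their part in the level of miR-9-5p was not tested.

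The opposite arm miR-9-3p was scarce, at 0.52 to 14.7 CPM. Every 48 h library lay above every library of the other groups, at 8.38, 14.7 and 9.68 CPM, against 2.95 to 7.34 CPM in untreated and 0.52 to 7.79 CPM at 24 h. These levels rest on 1 to 140 counts a library. Of all 453 miRNAs, 2.21% likewise had every 48 h library above every untreated one, and 10.4% above every 24 h one. For this arm the log2 fold change was 0.97 ± 0.95 against untreated and 1.71 ± 0.97 against 24 h (SE, n = 3; edgeR, adjusted p = 0.997 and 0.511), so the test called neither. As a share of both arms, miR-9-5p was 94.96%, 89.98% and 97.5% in untreated libraries, 97.2%, 90.3% and 99.6% at 24 h, and 91.6%, 82.9% and 90.1% at 48 h. Library 2 had the lowest share in every group, and the groups overlapped. The difference of 48 h was -5.96 percentage points from untreated and -7.51 from 24 h (two-sided exact permutation p = 0.3 and 0.2, adjusted p = 0.764 for both over 21 arm tests).

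miR-187-3p, which lowers TNF in human monocytes treated with IL-10, had 168, 85.7 and 79.0 CPM in untreated libraries, 262, 97.6 and 71.0 CPM at 24 h, and 134, 83.5 and 74.6 CPM at 48 h. In each group library 1 was the highest, and the 48 h libraries again lay inside the 24 h range. Its log2 fold change was 0.37 ± 0.63 at 24 h, -0.56 ± 0.63 between the times and -0.19 ± 0.63 at 48 h against untreated (SE, n = 3; edgeR, adjusted p = 0.874, 0.716 and 0.997, in that order). Without 24 h library 1 the value at 24 h was -0.46.

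miR-147-3p, which dampens cytokine production in mouse macrophages, and its opposite arm miR-147-5p had no mature row in any of the 9 tables used, and were counted as 0. A count of 0 allows up to 3 counts, which is 0.314 CPM in the deepest library and 1.55 CPM in the shallowest, for counting error alone. Even the higher of these limits is below the lowest level of any other member, 20.9 CPM for miR-132-3p in 24 h library 2. An absent row does not show whether miR-147 was among the miRNAs to which reads were matched. These limits hold only if it was, so its absence from the vesicles was not established.

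For the 5 members with a mean of at least 100 CPM, the miRNAs whose centred log2 CPM profiles over the 9 libraries were nearest were sought among 142 others at that level; the distance is the root mean square difference in log2 units, and all profiles share the same libraries. miR-146a-5p was nearest to miR-429-3p (0.27), miR-183-5p (0.28) and miR-28a-3p (0.31), with a median of 0.95 over all candidates. miR-146b-5p was nearest to miR-182-5p (0.36), miR-501-3p (0.39) and miR-21a-5p (0.40), with a median of 0.97. The 3 nearest of the miR-146 relatives had no miRNA in common. miR-155-5p was nearest to miR-26a-5p (0.29), miR-449a-5p (0.29) and miR-27a-3p (0.33), with a median of 0.72. miR-212-3p was nearest to miR-342-3p (0.49), miR-1306-3p (0.62) and let-7c-5p (0.63), with a median of 1.22. miR-187-3p was nearest to miR-26a-5p (0.46), miR-126a-3p (0.49) and miR-181b-5p (0.50), with a median of 0.94.

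A list of 22 other miRNAs that respond to Toll-like receptor signalling or inflammation in macrophages had 19 tested and 0 passing the adjusted threshold in either direction in any comparison. At an unadjusted p under 0.05, edgeR picked 4 of the 19 at 24 h (miR-19a-3p, miR-32-5p, miR-101a-3p and miR-29b-3p, all lower), 0 at 48 h against untreated and 3 at 48 h against 24 h (miR-19a-3p, miR-29b-3p and miR-221-3p, all higher), where it picked 0 of the 7 members. Groups did not overlap for 3 of the 19 at 24 h (miR-125a-5p higher, miR-19a-3p and miR-27a-3p lower), for 0 at 48 h against untreated, and for 4 at 48 h against 24 h (miR-19a-3p, miR-29b-3p, miR-32-5p and miR-221-3p, all higher). The miRNAs in these brackets were named after their values were seen. Over all 453 miRNAs, edgeR picked 10.2%, 0.883% and 9.71% at an unadjusted p under 0.05 in the 3 comparisons. Groups did not overlap for 10.4% of all (higher) and 6.18% (lower) at 24 h. These shares were 2.21% and 1.55% at 48 h against untreated, and 10.4% and 10.4% at 48 h against 24 h. At 24 h, 8 of the 19 on the list had a log2 fold change above 0 and 11 below (median -0.46, beside -0.17 for the 7 members and -0.07 for all tested). In the 48 h comparison with untreated, 13 were above and 6 below (median 0.22, beside 0.03 for all tested, of which 52.5% were above 0). At 48 h against 24 h, 16 were above and 3 below (median 0.37, beside 0.14 and 54.1%). The list was not split by the direction in which its miRNAs respond. The comparisons of 24 h with untreated and of 48 h with 24 h share the same 24 h libraries. The 4 most abundant of the list were in the same range of level as miR-146a-5p. miR-222-3p, an inhibitor of the cell cycle brake Cdkn1b, had group means of 40416 ± 11955, 62666 ± 15165 and 46587 ± 9455 CPM in untreated, 24 h and 48 h libraries (SD, n = 3). miR-27a-3p had 60146 ± 12602, 39848 ± 8162 and 45800.1 ± 4658 CPM, and every 24 h library was below every untreated one (edgeR, adjusted p = 0.543). Its relative miR-27b-3p had 48193 ± 23626, 32710.1 ± 8182 and 43969 ± 15593 CPM, and miR-21a-5p, which lowers Pdcd4, had 39605 ± 13138, 28770.2 ± 3819 and 45370 ± 20722 CPM.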

How the data were processed

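Small RNA of exosomes collected by ultracentrifugation was sequenced in 9 libraries (Trizol RNA, BGISEQ-500 protocol, per the labels' protocols). Trim Galore, Bowtie, HTSeq and mm10 are named per the submitters' processing notes, without versions. Per the file headers, the authors deposited whole read counts for each small RNA, and the counts of a library add up to the total in its header. Counts of class mature were used, and an absent row counted as 0. Other classes were not used in the tests.

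edgeR 4.0.16 (R 4.3.3) with TMM factors (0.829 to 1.16), filterByExpr at a minimum count of 10 and its quasi-likelihood test ran in 1 fit of 9 libraries (6 residual degrees of freedom) over the 453 miRNAs kept, with Benjamini-Hochberg adjustment and a threshold of 0.05. The SE is the absolute log2 fold change divided by the square root of F, and 95% intervals use the fit's degrees of freedom. The common biological coefficient of variation was 0.756. For arm shares, exact permutation tests (two-sided) were run over libraries for hairpins with at least 50 counts in every library. The fit was run on simulated counts with a smaller spread than these data and larger changes than those of the members. That run checks the code and does not measure the power of the tests here. Alternatives were DESeq2 1.42.0, other scalings, no filter, 2 groups only, the replicate number as a block, and leaving out libraries.

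Libraries with the same number deviated together from their group means, with r of 0.136, 0.439 and 0.149 (24 h with untreated, numbers 1 to 3) and 0.152, 0.636 and 0.315 (48 h with untreated). Every value is above 0.1, so the numbers were treated as possible pairs in these comparisons, from the data alone, as the labels state no pairing. The main fit held no block. Fold changes, SEs, intervals and adjusted p-values come from that unpaired fit unless a block or another setting is named. The pairing is uncertain, because libraries with different numbers could deviate together as much. Untreated library 1 had r of 0.160 with 24 h library 3 and 0.360 with 48 h library 3. The other pairs with different numbers had r of -0.532 to 0.101. Between the times r was -0.068, 0.289 and 0.253, and the numbers were not taken to pair. With the block, 3 miRNAs were called at 24 h against untreated, none of them a member.

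All members and their opposite arms are named, with the 4 most abundant of the other list, the neighbours in rank and the 3 nearest profiles; markers and other lists were named as lists. Members and lists were chosen with earlier results of these data known. Sequences come from RefSeq (GRCm38.p6) and gene positions from RefSeq and GENCODE on the same assembly.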

Additional observations from a re-analysis of the deposited data

How the results depend on the processing

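Over 16 alternatives, the 21 log2 fold changes of members gave 336 values, of which 304 kept their direction, 32 reversed and 0 passed the threshold (smallest adjusted p 0.228); 6 of the 21 never reversed. No alternative called a member. At 24 h against untreated, all miRNAs called numbered 4 with DESeq2, 7 with no filter, 3 with the replicate block, 1 with 2 groups only and 0 to 1 when 1 library was left out (1 without 48 h library 1 or 2). At 48 h against untreated, DESeq2 called 1 and no filter 1. At 48 h against 24 h, DESeq2 called 6, no filter 16, the replicate block 3 and leaving out 1 library 0 to 1 (1 without 48 h library 1). With the replicate block, miR-146b-5p was -0.021 at 48 h against untreated, and between the times miR-146a-5p was -0.0078 and miR-146b-5p -0.0077. Without the untreated and 48 h libraries numbered 2, a choice made after seeing the data, miR-146b-5p was 0.27 at 24 h and -0.38 at 48 h against untreated, and -0.66 between the times, and miR-155-5p was -0.17 at 48 h and -0.050 between the times. The cause was not tested.

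Leaving out 1 library at a time gave these ranges where a sign changed. At 24 h they were -0.51 to 0.29 for miR-146b-5p, -0.30 to 0.074 for miR-155-5p and -0.46 to 0.75 for miR-187-3p. At 48 h against untreated they were -0.49 to 0.20 for miR-146a-5p, -0.84 to 0.62 for miR-146b-5p, -0.12 to 0.21 for miR-155-5p, -0.33 to 1.24 for miR-212-3p and -0.48 to 0.15 for miR-187-3p. Between the times they were -0.051 to 0.42 for miR-146a-5p, -0.66 to 0.81 for miR-146b-5p, -0.046 to 0.35 for miR-155-5p, -0.27 to 0.54 for miR-132-3p, -1.34 to 0.047 for miR-212-3p, -0.15 to 0.47 for miR-9-5p and -0.95 to 0.20 for miR-187-3p. Arm shares changed sign within -17.6 to 13.6 percentage points (miR-132, 48 h against untreated), -0.54 to 4.23 (miR-9, 24 h), -0.35 to 0.066 (miR-187, 24 h), -0.063 to 0.0059 (miR-146b, 24 h), -0.0024 to 0.0064 (miR-146b, 48 h), -0.0024 to 0.066 (miR-146b, between the times) and -0.0001 to 0.0012 (miR-146a, 48 h).

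Scaling by all counted reads moved the median of all miRNAs from -0.07 to -0.21 at 24 h, from 0.03 to 0.14 at 48 h and from 0.14 to 0.36 between the times, with the members' calls as before. With 3 libraries a group the median half-width of a 95% interval at 24 h was 1.81 log2 units over all tested miRNAs. Among the tested members the interval was narrowest for miR-155-5p (-1.09 to 0.94) and widest for miR-212-3p (-0.77 to 2.86). Changes inside a member's interval were not excluded. The intervals are not adjusted for the number of miRNAs tested. They therefore do not give the smallest change that the adjusted test could detect.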

Other observations

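Outside the mature class, the tables also hold rows for precursor families. Per 1000000 counted reads of all classes, the mir-146 family had 345 to 812, mir-155 had 24.3 to 58.5, mir-132 had 6.81 to 76.7, mir-187 had 6.37 to 20.7 and mir-9 had 1.31 to 4.54. The 48 h library numbered 2 held both the highest mir-155 value (58.5) and the lowest mir-132 value (6.81). The next values were 40.9 for mir-155 in untreated library 1 and 26.5 for mir-132 in 24 h library 2. A second row named miR-187-3p, of class hairpin, held 0 to 11 counts a library and was not added to the mature count.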
